A study of Mus musculus with 78 samples.

Results

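The genes of the Nodal pathway described here are the extracellular antagonists Lefty1 and Lefty2, the ligands Nodal and Gdf3, the coreceptor Tdgf1, the receptor Acvr2b, the inhibitory Smad Smad7 and the DNA-binding partner Foxh1. They were taken as a named list of 8 genes out of the 55401 genes in each of 3 count tables, and all 8 had enough reads to be tested in every table. The cells were E14TG2a mouse embryonic stem cells, from a homozygous clone in which both copies of Zfp143 end in an FKBP12(F36V) degron, an HA tag and a separately translated GFP, so every library below, controls included, carries this allele. The degrader dTAG-V1 (500 nM, dTAG below) directs the tagged ZFP143 protein to destruction, and cells given the solvent DMSO were the controls. Each group had 2 biological replicates from this single line. Newly made RNA was measured by TT-seq, in which 4-thiouridine (2 mM for 10 min) marks transcripts while they are being made, at 2, 6 and 24 h of dTAG and in DMSO. Messenger RNA was measured by RNA-seq in DMSO and after 24, 48 and 72 h of dTAG, in stem cell medium with LIF and inhibitors of MEK and GSK3. A second RNA-seq experiment held cells kept for 24 h in DMSO or dTAG, and cells then moved for another 24 h, in the same DMSO or dTAG, to N2B27 medium with retinoic acid (RA). These last cells had therefore been depleted for 48 h, and RA and the change of medium cannot be told apart, since no library here had N2B27 without RA.

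Nodal is a secreted ligand of the TGF-β family. It binds activin receptors, such as Acvr2b, together with the coreceptor Tdgf1 (Cripto), and the active receptors phosphorylate Smad2 and Smad3, which enter the nucleus with Smad4 and act on DNA with partners such as Foxh1. Among the best known target genes are Nodal itself and its antagonists Lefty1 and Lefty2, which close a negative feedback loop, and the pathway is known for patterning the early embryo and for its activity in pluripotent cells. ZFP143 is a zinc finger transcription factor that binds mainly at promoters.

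In brief, in the time course of depletion in stem cell medium Lefty1 and Lefty2 mRNA was lower at 24 h and lower still at 72 h, without a called change of Nodal, Gdf3, Acvr2b, Smad7 or Foxh1 mRNA against DMSO. The 24 h calls were lost under some other settings, and in a second set of 24 h libraries neither Lefty gene was called (-0.38 and -0.27). After RA, 6 of the 8 genes were lower than before RA in both conditions. In that state dTAG cells held less Lefty1 and Lefty2 mRNA and more Tdgf1 mRNA than DMSO cells, and less Gdf3 mRNA by a call that other settings lost.

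Total counts per library ran from 9721568 to 16532077 for TT-seq, from 10261851 to 15316700 for the time course of RNA-seq, and from 13890761 to 27089033 for the RA experiment. Zfp143 transcripts, which the degron does not remove, were called higher in all 8 comparisons of dTAG with DMSO, by 1.09 to 1.38 on the log2 scale, and this checks the treatment and not the protein. All 8 embryonic stem cell markers, among them Pou5f1, Nanog and Sox2, were detected in every group. Their summed level in RNA-seq was 5547 and 5654 CPM (counts scaled to a common library total) in the lowest and highest DMSO library and 4076 to 4127 CPM at 72 h of dTAG. Within that sum Nanog fell from a mean of 768 to 250 CPM (-1.62, adjusted p = 1.83e-19 by edgeR's glmTreat) and Sox2 from 517 to 252 (-1.03, adjusted p = 4.61e-10), while the other 6, Pou5f1 among them (-0.57), were not called. The part of these changes in the results on the 8 genes was not tested. Primitive endoderm markers (6 genes) summed to 269 to 276 CPM in DMSO and 421 to 440 CPM at 72 h, nearly all of it Sparc, with means of 266 and 414 CPM. Gata6 (0.0458 and 0.678 CPM) and Sox17 (0.163 and 1.42) were near 0. Mesoderm markers stayed at or below 2.18 CPM in sum in the time course, neural markers (4 genes) went from 101 to 105 CPM in DMSO to 69.8 to 71.5 at 72 h, mostly Nes (means of 99.8 and 59.2) while Sox1 (2.01 and 9.81) was higher, and fibroblast markers (3 genes) from 3.70 to 4.03 to 8.49 to 9.39. In these bulk samples a smaller share of cells that express a gene and less RNA per cell cannot be told apart.

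The 8 genes lie on 6 chromosomes of GRCm38/mm10. Lefty2 (chromosome 1, 180893108 to 180899103, plus strand) and Lefty1 (chromosome 1, 180935022 to 180938400, plus strand) lie on the same strand, 35918 bp apart. Nodal is on chromosome 10 (61417972 to 61425338, plus strand) and Gdf3 on chromosome 6 (122605403 to 122610087, minus strand). Tdgf1 (110939603 to 110946158, minus strand) and Acvr2b (119402118 to 119434995, plus strand) are both on chromosome 9. Smad7 is on chromosome 18 (75367529 to 75395935, plus strand) and Foxh1 on chromosome 15 (76668225 to 76669948, minus strand). Of the stretches of 50 bases in their transcripts, 17.9% in Lefty1 and 12.0% in Lefty2 also occur in another gene, mainly each other, and 8.86% in Tdgf1, whose copy is the pseudogene Tdgf1-ps1. Counts from those stretches are uncertain, while Nodal, Acvr2b, Smad7 and Foxh1 shared none. Acvr2b overlaps the antisense gene Gm47320 over 3909 bp, and since the strand setting of the RNA-seq counts is not given in the sources used here, its RNA-seq counts may hold reads of both.

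A ZFP143 ChIP-seq peak stood near the start of 1 of the 8 genes, Foxh1, against 9.89% of 21951 protein-coding genes. Near meant a peak overlapping the stretch from 2000 bp before to 1000 bp after a transcript start, with its centre within 2000 bp of that start. The Foxh1 peak (chr15:76671430-76671737) was centred 1636 bp upstream of Foxh1 and 32 bp upstream of the neighbouring gene Ppp1r16a, and its enrichment over input, 12.5-fold, was below the median of all 3189 peaks, 20.8-fold. Widening the distance to 10000 bp added Nodal, with a peak 2100 bp upstream (chr10:61415677-61416066, 13.1-fold), and Lefty2, with a peak 4124 bp upstream (chr1:180888857-180889110, 10.1-fold). That made 3 of the 8 genes, against 12.6% of protein-coding genes within this distance of the gene start. The centre of neither added peak lies inside an annotated gene, and Nodal and Lefty2 are the protein-coding genes with the nearest starts. The nearest peak to the start of Lefty1 is the Lefty2 one, 46038 bp upstream, and the nearest peaks to Tdgf1, Acvr2b, Gdf3 and Smad7 lay between 19.5 and 212.1 kb away. A CTCF peak stood near the start of 0 of the 8 genes by the same rule, against 14.6% of protein-coding genes, and within 10000 bp of 6 of them, against 31.6%. The authors deposited 1 list per factor, so no difference in binding between DMSO and dTAG was analysed here.

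The 300 bases around the centre of each of these 3 ZFP143 peaks are shown because they are the only listed sites of the depleted factor within 10000 bp of the start of any of the 8 genes. They are read from GRCm38 on the plus strand, 5′ to 3′, and capitals would mark ACTACA, or the longer ACTACA with any 2 bases and TCCC after it, letters of a known binding motif of this factor, searched on both strands.
Foxh1 and Ppp1r16a, chr15:76671434-76671733: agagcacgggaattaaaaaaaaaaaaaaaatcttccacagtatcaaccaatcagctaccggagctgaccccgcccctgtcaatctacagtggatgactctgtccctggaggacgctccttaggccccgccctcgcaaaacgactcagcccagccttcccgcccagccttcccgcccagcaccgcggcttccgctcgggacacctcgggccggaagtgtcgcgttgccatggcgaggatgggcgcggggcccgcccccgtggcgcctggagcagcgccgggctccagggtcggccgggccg
Nodal, chr10:61415722-61416021: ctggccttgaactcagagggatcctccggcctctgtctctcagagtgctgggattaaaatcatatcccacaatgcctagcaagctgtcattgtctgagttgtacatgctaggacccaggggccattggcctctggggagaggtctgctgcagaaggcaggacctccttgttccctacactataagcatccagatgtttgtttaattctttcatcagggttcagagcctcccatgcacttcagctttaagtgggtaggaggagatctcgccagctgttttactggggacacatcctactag
Lefty2, chr1:180888834-180889133: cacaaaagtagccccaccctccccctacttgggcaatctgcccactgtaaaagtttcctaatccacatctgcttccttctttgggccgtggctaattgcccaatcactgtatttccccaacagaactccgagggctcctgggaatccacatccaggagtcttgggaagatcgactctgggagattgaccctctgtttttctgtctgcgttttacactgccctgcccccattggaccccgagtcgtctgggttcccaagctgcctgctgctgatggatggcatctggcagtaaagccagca
None of the 3 windows held either motif, while 29.2% of the 3189 peaks held the longer motif and 39.3% held ACTACA, which the longer one contains, in windows of the same length. Only these exact letters were searched. The study matched weighted motifs, which tolerate other letters, and found them in most of its ZFP143 peaks. The lack of the exact letters here therefore does not show that a looser match is missing.

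Per length, Lefty2 was the most abundant of the 8 mRNAs in DMSO cells of the time course. Its level was 344 and 352 CPM per kb of merged exons in the 2 libraries, followed by Tdgf1 (186 and 187), Lefty1 (134 in both), Foxh1 (48.0 and 47.6), Gdf3 (41.8 and 44.1), Nodal (42.6 and 41.5), Smad7 (15.6 and 14.0) and Acvr2b (8.63 and 8.04). Gdf3 and Nodal overlapped in this order and the other neighbours did not. By 72 h of dTAG Tdgf1 stood first (119 and 115 CPM per kb), followed by Lefty2 (64.6 and 57.5) and Nodal (54.1 and 55.6). Lefty1 had moved below Foxh1 and Gdf3 (34.9 and 30.7). In TT-seq, scaled to gene length, the order in DMSO was another one: Tdgf1 led with 25.5 and 24.0 CPM per kb, and Lefty2 (13.6 and 6.96) and Lefty1 (5.69 and 4.02) stood below Smad7, Gdf3 and Nodal. There Lefty2 overlapped its neighbours Nodal and Foxh1, Foxh1 overlapped Lefty1, and Smad7 overlapped Gdf3.

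RNA-seq over 72 h of depletion asked which transcripts were altered in cells without ZFP143. Lefty2 and Lefty1, which block Nodal outside the cell, were the genes of the list called lower at each of the 3 times against DMSO. A gene was called at an adjusted p under 0.01 in a test against a fold of 1.5. These were 2 of 8 genes each time. Of all 13925 tested genes 3.41% were called lower at 24 h, with shares of 7.71% and 12.0% at the later times. No gene of the list was called higher, against 2.32%, 10.5% and 13.7% of all genes. The median log2 change of the 8 genes was -0.28, -0.43 and -0.48 at the 3 times, and that of all tested genes was 0.02, 0.01 and 0.02. All 3 times were compared with the same 2 DMSO libraries.

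Lefty2 stood at 899 and 919 CPM in DMSO. After 24 h of dTAG the libraries held 537 and 530 CPM, after 48 h 239 and 231, and after 72 h 169 and 150. The pairs of libraries did not overlap at any step, and each later time lay below the earlier one. The log2 change against DMSO was -0.77 (SE 0.044, adjusted p = 5.20e-04 by edgeR's glmTreat with Benjamini-Hochberg adjustment, as for all RNA-seq contrasts below) at 24 h, -1.95 (SE 0.046, adjusted p = 1.03e-20) at 48 h and -2.52 (SE 0.048, adjusted p = 1.49e-23) at 72 h, which is 5.72-fold lower. Lefty1 stood at 235 and 236 CPM in DMSO. After 24 h it was at 123 and 140, after 48 h at 66.0 and 67.1, and after 72 h at 61.4 and 54.0. Here too no pair overlapped and every step was downward, by -0.84 (SE 0.054, adjusted p = 1.21e-04), -1.82 (SE 0.059, adjusted p = 2.06e-17) and -2.04 (SE 0.060, adjusted p = 4.15e-19), the last 4.11-fold lower. The 24 h calls of this experiment were the least firm: with library size alone as the scale neither gene was called, and Lefty1 was also not called by DESeq2 (adjusted p = 0.0117) or without replicate 1 of the 24 h dTAG group (-0.75, adjusted p = 0.0218). The fall continued after 24 h, since Lefty2 and Lefty1 were lower at 72 h than at 24 h of dTAG by -1.75 (SE 0.048, adjusted p = 2.10e-18) and -1.19 (SE 0.063, adjusted p = 7.24e-10).

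**Figure D1:**
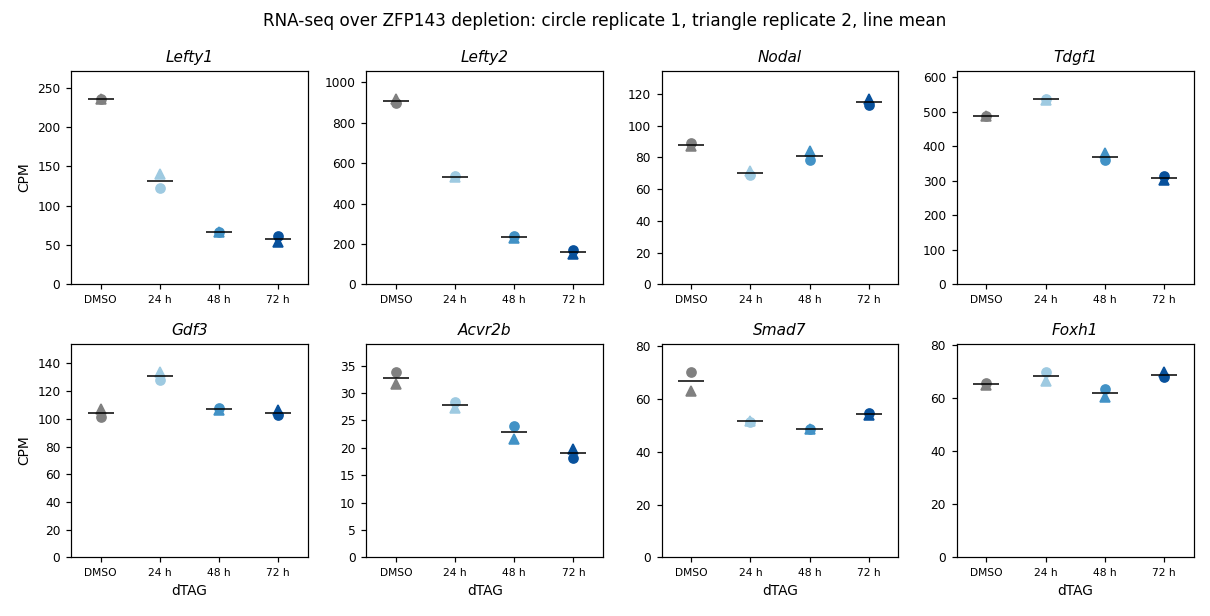
CPM of the 8 genes in RNA-seq of DMSO cells and after 24, 48 and 72 h of dTAG, with a circle for replicate 1, a triangle for replicate 2, a line for their mean, and axes from 0. Lefty2 runs from 899 and 919 CPM to 169 and 150, and Lefty1 from 235 and 236 to 61.4 and 54.0, while Foxh1 and Gdf3 end near their DMSO level.

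Neither ligand was called against DMSO. Nodal mRNA was at 89.2 and 87.0 CPM in DMSO. It was at 69.0 and 71.4 after 24 h, 78.3 and 83.7 after 48 h, then 113 and 117 after 72 h. It was thus below DMSO at 24 and 48 h and above it at 72 h in both libraries each time, with log2 differences of -0.33, -0.12 and 0.39 (adjusted p = 1.00 each) that were not called. Between 24 and 72 h of dTAG the difference was 0.71 (SE 0.055, adjusted p = 0.0218), which missed the threshold and passed it with library size alone (0.80). Gdf3, a ligand related to Nodal, was at 101 and 107 CPM in DMSO cells, then 128 and 134 after 24 h, 108 and 106 after 48 h, then 103 and 106 after 72 h, so the 24 h libraries alone stood apart from DMSO (log2 difference 0.33, adjusted p = 1.00).

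Tdgf1, the coreceptor, was at 487 and 489 CPM in DMSO cells, then 538 and 535 after 24 h, 360 and 380 after 48 h, then 313 and 301 after 72 h. Its 72 h level was below DMSO by -0.67 (SE 0.042, adjusted p = 0.0223), which was not called, and it fell between 24 and 72 h by -0.81 (SE 0.042, adjusted p = 1.29e-05), which was. With Lefty1 and Lefty2 this made 3 of 8 genes lower at 72 h than at 24 h, where 6.60% of all genes were, and 0 of 8 higher, where 7.53% were. Acvr2b, an activin type II receptor, was at 33.9 and 31.6 CPM in DMSO cells, then 28.3 and 27.3 after 24 h, 24.0 and 21.7 after 48 h, then 18.2 and 19.8 after 72 h. Each later pair was below the earlier one, and the 72 h difference of -0.77 (SE 0.091, adjusted p = 0.0219) was not called at the threshold used. Tdgf1 and Acvr2b at 72 h would both be called by the plain quasi-likelihood test with an absolute log2 change above 0.5 (adjusted p = 2.70e-14 and 1.45e-08), the rule used for TT-seq, and Tdgf1 also without a filter on low counts (-0.71, adjusted p = 0.00564). Smad7, an inhibitor inside the cell, was at 70.4 and 63.1 CPM in DMSO and between 48.5 and 54.9 in the 6 dTAG libraries, and Foxh1 ranged over 60.2 to 69.8 CPM in all 8 libraries. Neither was called at any time (adjusted p = 1.00).

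TT-seq asked whether the making of these transcripts changed early. None of the 8 genes was called in either direction at 2, 6 or 24 h, where 2.37%, 2.92% and 4.25% of 17870 tested genes were called lower and 0.168%, 0.386% and 2.01% higher by edgeR's quasi-likelihood test, at an adjusted p under 0.05 together with a log2 change beyond 0.5 in size. DESeq2 also called 0 of 8 at each time, and an unadjusted p under 0.05 was reached by 0 genes at 2 h, 3 at 6 h (Lefty1, Lefty2 and Acvr2b) and 2 at 24 h (Acvr2b and Foxh1), beside 11.4%, 17.6% and 21.8% of all genes. Over all genes, leaving out 1 of the compared libraries lowered the count of lower calls from 423 to as few as 102 at 2 h, from 522 to 109 at 6 h and from 760 to 340 at 24 h. The spread between replicates was large in this assay, with a coefficient of biological variation of 17.2%, where mRNA over the time course had 3.65%.

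Lefty2 in TT-seq was at 81.4 and 41.7 CPM in DMSO cells, then 83.2 and 78.4 after 2 h, 114 and 86.2 after 6 h, then 57.7 and 39.4 after 24 h. Both 6 h libraries were above both DMSO libraries, and at 24 h the groups overlapped. The log2 differences were 0.40 (SE 0.30, adjusted p = 0.677), 0.71 (SE 0.30, adjusted p = 0.270) and -0.34 (SE 0.30, adjusted p = 0.567). Lefty1 was at 19.2 and 13.6 CPM in DMSO cells, then 17 and 31.0 after 2 h, 19.9 and 39.5 after 6 h, then 13.0 and 14.7 after 24 h. Its order was the same, with both 6 h libraries above DMSO and an overlap at 2 and 24 h, and its differences were 0.56 (SE 0.37, adjusted p = 0.628), 0.86 (SE 0.37, adjusted p = 0.277) and -0.24 (SE 0.38, adjusted p = 0.768). Without a filter on low counts the 6 h differences of both Lefty genes were called higher (0.86, adjusted p = 0.00812, and 0.70, adjusted p = 0.00207). With the replicate number as a block Lefty2 alone of the 8 genes was called, also at 6 h (0.75, adjusted p = 0.0328), and over all genes the block raised the calls at 6 h from 522 lower and 69 higher to 976 and 342. The sign at 24 h changed when replicate 1 of DMSO was left out, where the differences were 0.02 for Lefty1 and 0.21 for Lefty2.

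**Figure D2:**
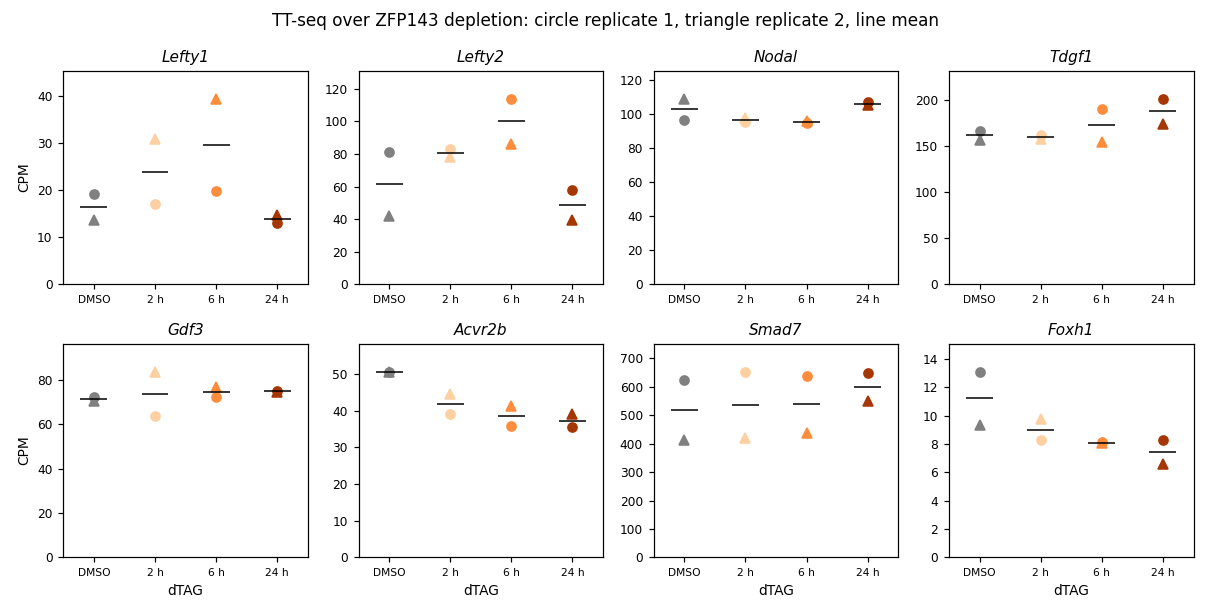
CPM of the 8 genes in TT-seq at 2, 6 and 24 h of dTAG and in DMSO cells, with a circle for replicate 1, a triangle for replicate 2, a line for their mean, and axes from 0. The 2 replicates lie far apart in some groups, as for Lefty2 in DMSO (81.4 and 41.7) and Lefty1 at 6 h (19.9 and 39.5), while Acvr2b in dTAG lies below both DMSO libraries at all times.

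Among the other genes in TT-seq, Acvr2b was at 50.7 and 50.6 CPM in DMSO cells, then 39.2 and 44.5 after 2 h, 35.9 and 41.2 after 6 h, then 35.5 and 39.2 after 24 h, so all 6 dTAG libraries were below both DMSO libraries. The log2 differences of -0.27, -0.39 and -0.44 had adjusted p-values of 0.509, 0.186 and 0.103. Foxh1, beside the ZFP143 peak, was at 13.1 and 9.34 CPM in DMSO and at 8.25 and 6.62 CPM after 24 h (-0.59, SE 0.24, adjusted p = 0.203), and rested on 84 to 163 reads per library. Its neighbour Ppp1r16a, whose start is the nearest to that peak, differed by -0.58 (SE 0.163, adjusted p = 0.0776) at 24 h and was not called either. At 2 and 6 h Ppp1r16a differed by -0.11 and -0.26. In RNA-seq at 24, 48 and 72 h it lay above DMSO, by 0.14, 0.15 and 0.39, without a call. Nodal (94.8 to 109 CPM over all 8 libraries), Tdgf1 (155 to 202) and Gdf3 (63.9 to 83.7) had log2 differences between -0.11 and 0.21. Smad7 was at 622, 653, 638 and 647 CPM in the libraries of replicate 1 and at 413, 420, 438 and 549 in those of replicate 2, in the order DMSO, 2, 6 and 24 h, so replicate 1 was above replicate 2 in every group.

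**Figure D3:**
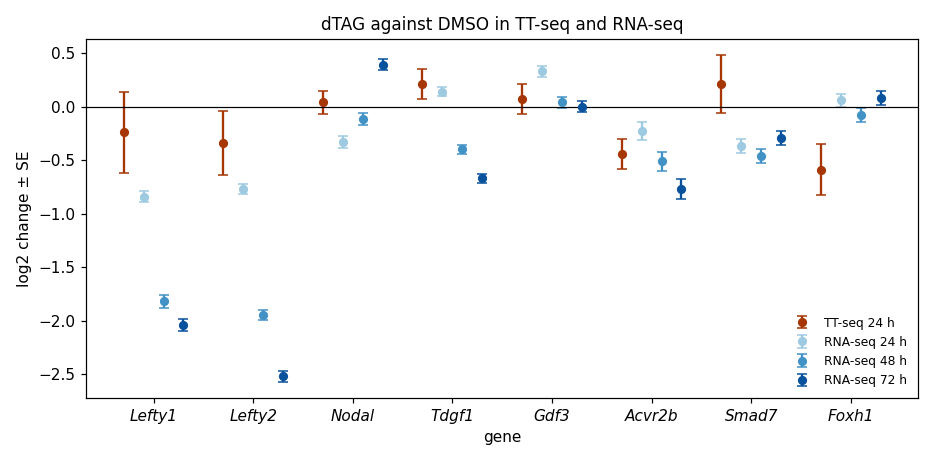
Log2 change of the 8 genes in dTAG against DMSO, with bars of 1 SE, in TT-seq at 24 h and in RNA-seq at 24, 48 and 72 h. Lefty1 and Lefty2 alone go below -1 and do so at 48 and 72 h in RNA-seq, while their TT-seq values at 24 h are -0.24 (SE 0.38) and -0.34 (SE 0.30).

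The RA experiment began with a second, separate set of 24 h libraries in stem cell medium. None of the 8 genes was called in dTAG against DMSO there, where 3.66% of 15915 tested genes were called lower and 2.74% higher, DESeq2 also called 0, and 0 reached an unadjusted p under 0.05. Lefty1 was at 84.7 and 105 CPM in DMSO and 78.5 and 66.9 in dTAG (-0.38, SE 0.15, adjusted p = 1.00), and Lefty2 at 412 and 462 in DMSO and 374 and 352 in dTAG (-0.27, SE 0.071, adjusted p = 1.00). Both were below DMSO in both libraries, as at 24 h of the time course, where the differences were -0.84 and -0.77. The difference between the experiments was not tested, since their tables were normalized separately. Gdf3 (117 and 119 CPM in DMSO, 160 and 141 in dTAG) and Tdgf1 (444 and 437, 535 and 554) were above DMSO in both libraries, by 0.35 and 0.31 (adjusted p = 1.00), and the other 4 genes overlapped.

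After 24 h of RA most of the list was lower than before. In DMSO cells 6 of 8 genes were called lower and 0 higher, where 18.1% and 25.8% of all genes were, and in dTAG cells 6 of 8 lower and 0 higher, where 18.5% and 25.0% were. In both conditions these were Lefty1, Lefty2, Nodal, Gdf3, Tdgf1 and Smad7, and Acvr2b and Foxh1 were not called in either. The median log2 change of the 8 genes was -1.74 in DMSO and -2.57 in dTAG, beside 0.03 and 0.00 over all tested genes. Over the same step the summed level of the 8 embryonic stem cell markers went from 6633 to 6840 CPM down to 704 to 1039 CPM in DMSO, and from 5698 to 5728 down to 1366 to 1607 in dTAG. How much of the change of the list moves with that of these markers was not tested.

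Lefty2 fell from 412 and 462 CPM to 11.3 and 11.4 in DMSO cells, and from 374 and 352 to 2.09 and 2.46 in dTAG cells. The log2 changes were -5.27 (SE 0.095, adjusted p = 7.80e-20) and -7.31 (SE 0.12, adjusted p = 3.87e-21). Lefty1 fell from 84.7 and 105 CPM to 18.8 and 35.1 in DMSO cells, a change of -1.85 (SE 0.17, adjusted p = 9.14e-08), and from 78.5 and 66.9 to 2.43 and 2.14 in dTAG cells, a change of -4.99 (SE 0.23, adjusted p = 1.96e-13). The last 2 values rest on 50 and 46 reads, and those of Lefty2 on 43 and 53. The order of the pair turned over with RA: per kb of exon, Lefty2 was 3.28 and 2.97 times Lefty1 in DMSO before RA and 0.404 and 0.218 times after it, and in dTAG 3.21 and 3.55 times before and 0.579 and 0.774 times after.

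**Figure D4:**
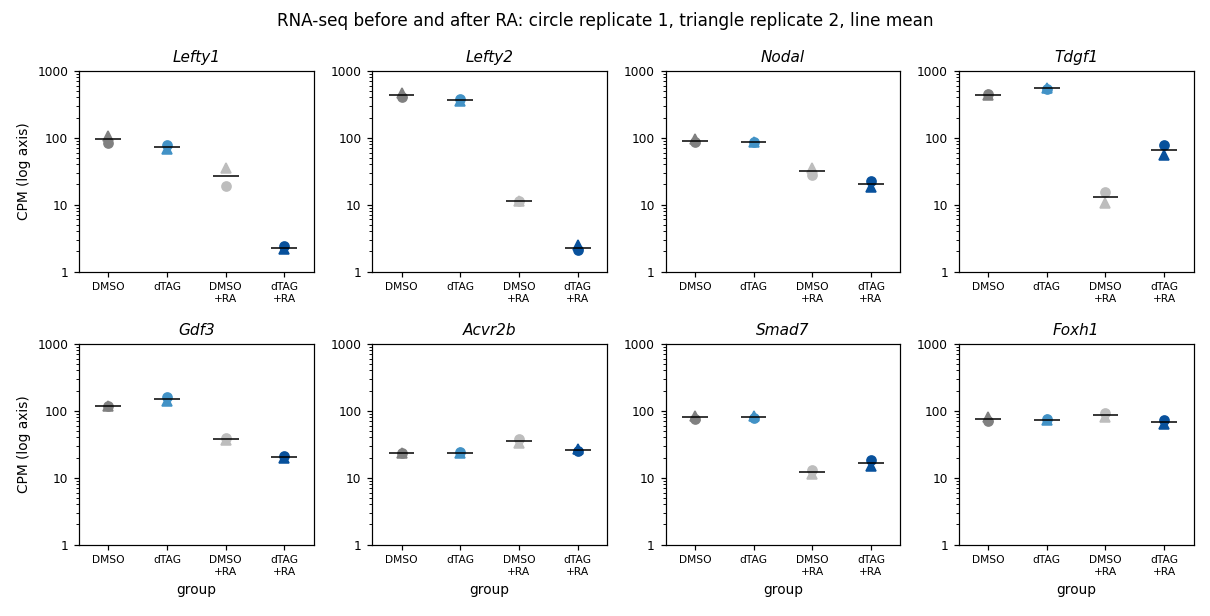
CPM of the 8 genes on a common log axis before RA in DMSO and dTAG and after 24 h of RA in DMSO and dTAG, with a circle for replicate 1, a triangle for replicate 2 and a line for their mean. After RA the dTAG libraries of Lefty1 (2.43 and 2.14) and Lefty2 (2.09 and 2.46) lie far below those of DMSO, and those of Tdgf1 (77.7 and 54.6) far above (15.5 and 10.6).

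Nodal and Gdf3, the ligands, fell in both conditions. Nodal went from 85.1 and 94.9 CPM to 28.0 and 34.9 in DMSO cells (-1.53, SE 0.10, adjusted p = 4.05e-09) and from 85.1 and 85.5 to 22.2 and 18.4 in dTAG cells (-2.07, SE 0.11, adjusted p = 7.87e-12). Gdf3 went from 117 and 119 CPM to 39.6 and 36.4 in DMSO (-1.63, SE 0.083, adjusted p = 3.01e-11) and from 160 and 141 to 21.4 and 20 in dTAG (-2.86, SE 0.088, adjusted p = 8.24e-16). In both genes the dTAG libraries after RA were the lowest of the experiment. Tdgf1 showed the opposite order: it went from 444 and 437 CPM to 15.5 and 10.6 in DMSO (-5.05, SE 0.15, adjusted p = 7.44e-17) and from 535 and 554 to 77.7 and 54.6 in dTAG (-3.04, SE 0.12, adjusted p = 3.76e-14). Smad7 went from 76.1 and 84.4 CPM to 12.9 and 11.2 in DMSO (-2.73, SE 0.11, adjusted p = 4.92e-14) and from 77.8 and 82.9 to 18.3 and 15.0 in dTAG (-2.27, SE 0.10, adjusted p = 6.42e-13).

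Acvr2b and Foxh1 were not called in either condition. Acvr2b was at 23.5 and 23.4 CPM before and 38.0 and 32.7 after RA in DMSO (0.60, SE 0.10, adjusted p = 0.355), and at 23.9 and 23.0 before and 24.8 and 26.4 after it in dTAG (0.13, SE 0.10, adjusted p = 1.00). Both pairs after RA were above those before it, and neither passed the test against a fold of 1.5, although in DMSO cells the value with library size alone did (0.92, adjusted p = 9.53e-04). Foxh1 was at 71.3 and 79.4 CPM before and 94.0 and 81.3 after RA in DMSO, and at 75.1 and 72.9 before and 72.8 and 63.6 after it in dTAG, so it stood above the level before RA in DMSO and below it in dTAG, with log2 differences of 0.22 and -0.12. Per kb it was then the most abundant of the 8 mRNAs in both conditions (68.9 and 59.5 CPM per kb in DMSO, 53.3 and 46.6 in dTAG).

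Set against each other after RA, dTAG cells were lower than DMSO cells in Lefty1 by -3.52 (SE 0.26, adjusted p = 2.33e-09), 11.5-fold, in Lefty2 by -2.31 (SE 0.15, adjusted p = 1.73e-09), 4.96-fold, and in Gdf3 by -0.88 (SE 0.092, adjusted p = 0.00317). They were higher in Tdgf1 by 2.31 (SE 0.14, adjusted p = 8.31e-10), 4.95-fold. That made 3 of 8 genes lower and 1 higher, where 7.36% and 9.10% of all genes were called. Nodal (-0.62, adjusted p = 0.505), Acvr2b (-0.47), Foxh1 (-0.37) and Smad7 (0.46, adjusted p = 1.00 for these 3) were not called, although the 2 groups did not overlap in any of them. The Gdf3 call was lost by DESeq2 (-0.85, adjusted p = 0.110), with library size alone (-0.67, adjusted p = 0.207), and without replicate 1 of DMSO after RA (-0.80, adjusted p = 0.0554), replicate 1 of dTAG after RA (-0.90, adjusted p = 0.0121) or replicate 2 of dTAG after RA (-0.81, adjusted p = 0.0543). Summed fibroblast markers (3 genes) were at 23.6 to 28.3 CPM in DMSO and 57.2 to 58.6 in dTAG after RA, primitive endoderm markers at 182 to 193 and 320 to 352, mostly Sparc (means of 151 and 283), and neural markers (4 genes) at 103 to 118 and 55.7 to 60.9, with Pax6 (means of 51.8 and 13.2) and Nes (26.1 and 8.82) lower and Zic1 (4.2 and 13.3) higher in dTAG. Mesoderm markers (4 genes) summed to 4.72 to 4.77 CPM in DMSO and 8.18 to 9.22 in dTAG. The higher stem cell marker sum of dTAG given above lay mostly in Esrrb (means of 67.4 and 370) and Tfcp2l1 (105 and 246). Pou5f1 (443 and 422) and Nanog (40.3 and 47.8) differed little. The part of these differences, and of the higher stem cell marker level, in the results on the 8 genes was not tested.

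The difference between the RA effects themselves was tested as an interaction, the log2 change after RA in dTAG minus that in DMSO. In dTAG cells this step also holds the second day of depletion, so RA and longer depletion cannot be told apart in it. In the time course without RA the log2 difference from DMSO went from -0.84 at 24 h to -1.82 at 48 h for Lefty1 and from -0.77 to -1.95 for Lefty2. Over the same day Tdgf1 went from 1.10-fold above DMSO to 1.32-fold below it. Gdf3 went from 1.26-fold to 1.03-fold above, and Nodal from 1.26-fold to 1.09-fold below. By edgeR's quasi-likelihood test 4 of 8 genes were called lower and 1 higher, where 18.0% and 13.7% of all genes were (2863 and 2186 genes, a split that turned to 2410 and 2529 with library size alone). Lefty1 fell further in dTAG by -3.14 (SE 0.31, adjusted p = 7.00e-08), Lefty2 by -2.04 (SE 0.17, adjusted p = 7.73e-09) and Gdf3 by -1.23 (SE 0.12, adjusted p = 6.79e-08). Tdgf1 fell less in dTAG, with a difference of 2.00 (SE 0.18, adjusted p = 2.88e-08). Nodal, at -0.54 (SE 0.15, adjusted p = 0.00497), lay close to the threshold of 0.5 and was not called with the other 2 scalings (-0.49 and -0.47), by DESeq2 (-0.49), or without replicate 1 of DMSO before RA (-0.47), replicate 2 of DMSO after RA (-0.37) or replicate 2 of dTAG after RA (-0.36). Acvr2b (-0.47, adjusted p = 0.0107), Smad7 (0.45, adjusted p = 0.0188) and Foxh1 (-0.34, adjusted p = 0.0311) passed in p and not in size.

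**Figure D5:**
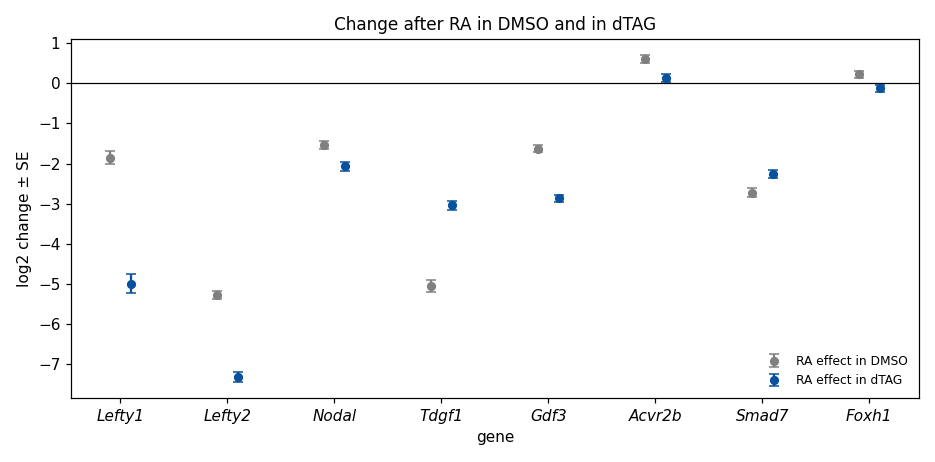
Log2 change after RA of the 8 genes in DMSO (grey) and dTAG (blue), with bars of 1 SE. The dTAG point is lower for Lefty1 (-4.99 against -1.85), Lefty2 (-7.31 against -5.27) and Gdf3 (-2.86 against -1.63), and higher for Tdgf1 (-3.04 against -5.05).

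Of 41 other genes of the pathway, TT-seq had 30 with enough reads, the RNA-seq time course 31 and the RA experiment 36. In TT-seq none was called at 2, 6 or 24 h, and an unadjusted p under 0.05 was reached by 3, 2 and 4 of them, no larger shares than the 11.4%, 17.6% and 21.8% of all genes. In the time course 0 were called at 24 h, where 3.41% of all genes were called lower and 2.32% higher. An unadjusted p under 0.05 was reached there by 3 of them and by 12.7% of all genes. At 48 h 3 were lower and 4 higher (9.68% and 12.9%, beside 7.71% and 10.5% of all genes). At 72 h 6 were lower and 4 higher, shares of 19.4% and 12.9% beside the 12.0% and 13.7% of all genes. At 72 h both tested antagonists besides the Lefty genes were higher, Fst, which binds activins, by 1.78 and Dand5, which binds Nodal, by 1.44. Smad3, an effector of the pathway, was lower by -1.44 as the only 1 of 7 Smads and nuclear partners called, and of 11 intracellular inhibitors Skil (-1.03) and Tgif2 (-0.98) were lower. Among 5 tested transcription factors that Nodal is known to induce, Gsc (-1.61) and Otx2 (-1.49) were lower. Sox17 was the 1 called higher, on 4 reads in the DMSO libraries and 36 at 72 h, and it entered the test only through the later dTAG libraries, where it is high. Of the ligand and receptor lists Pcsk6, a convertase, was lower (-0.84) and the receptor Acvr2a higher (0.94).

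After RA, dTAG cells differed from DMSO cells in 8 of the 36 tested pathway genes, 2 lower and 6 higher, shares of 5.56% and 16.7% beside 7.36% and 9.10% of all genes. Fst was higher by 2.16, on 26 reads in DMSO and 131 in dTAG. Inhbb, which encodes an activin subunit, was higher by 2.33 and the type I receptor Acvr1b by 0.81. None of the 7 Smads and nuclear partners was called (0 also in the interaction). Of the transcription factors Otx2 (2.63, on 11 reads in DMSO and 78 in dTAG) and Mixl1 (2.58, on 9 reads in DMSO and 62 in dTAG) were higher. In the interaction 5 genes were lower and 8 higher, shares of 13.9% and 22.2% beside 18.0% and 13.7% of all genes. Among the higher ones were T (2.92, on 12 to 61 reads per group) and Mixl1 (1.98). In the related BMP branch, of which 10 genes were tested in the time course and 11 in the RA experiment, Smad6 (-2.91) and Id4 (-1.73) were lower and Smad5 (1.06) higher at 72 h of dTAG, and after RA dTAG cells had more Id4 (1.91) and Smad9 (1.43) and less Smad6 (-1.42).

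The genes most like Lefty1 and Lefty2 were sought by Pearson's r of log2 CPM over the 20 libraries without RA, each experiment centred on its DMSO libraries, among 8828 genes with a mean count of at least 100 in each table. These r describe libraries that share treatments and controls, so they carry no p. Lefty2 followed Fgf4 (r = 0.991), Dlg3 (0.985) and Cat (0.985) most closely, and Lefty1 followed Ifitm1 (0.978), Prep (0.967) and Lpar1 (0.963). The r between the Lefty genes was 0.941. Tdgf1 had an r of 0.777 with Lefty2, Smad7 0.671, Acvr2b 0.606, Gdf3 0.00353, Foxh1 -0.337 and Nodal -0.439. Over the 8 libraries of the RA experiment, which fall apart by RA, Rad9a, Wee1 and Ptges3-ps came first among 11344 genes, each with an r of 0.999 with Lefty2. There the r with Lefty2 was 0.992 for Nodal, 0.989 for Gdf3, 0.924 for Smad7, 0.797 for Tdgf1, 0.0554 for Foxh1 and -0.531 for Acvr2b.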

How the data were processed

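Per the labels and the study's methods, reads were mapped to mm10 with STAR and counted on GENCODE vM25. The 3 tables deposited by the authors hold raw counts per gene, for TT-seq from uniquely mapped reads after removal of duplicates, split by strand and counted with HTSeq, and for RNA-seq from the counting mode of STAR. The ZFP143 peak list deposited by the authors, made with MACS2, holds each peak's ratio to input (fold) beside −log10 of its p-value, and the CTCF list gives positions only, with DMSO and dTAG pooled. The 4C files were not used here.

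The control columns of the TT-seq table carry the time 0 in place of DMSO and were taken as its DMSO samples, the only control group the labels give. Of 55401 identifiers, 55141 matched GENCODE vM21, from which names, positions and lengths were taken. Genes entered the tests if 4 or more of 8 libraries had over 10 counts, and were tested with edgeR 4.0.16 and limma 3.58.1 (R 4.3.3), scaled by TMM, in 1 fit per table over 4 groups of 2. For TT-seq and the interaction glmQLFTest was used (adjusted p under 0.05, absolute log2 change above 0.5), and for RNA-seq contrasts glmTreat against a fold of 1.5 (adjusted p under 0.01), with Benjamini-Hochberg adjustment over all tested genes. CPM were scaled with TMM. SE is that of the log2 change. No libraries held identical values, and the scripts were tested on simulated data. Alternatives were other scalings, DESeq2 1.42.0, no filter, the other call rule, fits of the compared groups only, a replicate block and leaving out each library. The 8 genes are named in every comparison, other pathway genes from fixed lists (at most 3 called genes per list and comparison), and like genes by the 3 highest r. The genes and lists were chosen with earlier results of these data known, and Ppp1r16a after its values were seen. Some genes are not reported here. The labels name no shared source for libraries with the same replicate number, whose deviations from their group means correlated at 0.193 to 0.631 in TT-seq and at -0.0986 to 0.125 in RNA-seq. The precision is set by 2 replicates per group and by the depths given above.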

Additional observations from a re-analysis of the deposited data

Results flagged for a closer look

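The effect of RA differed between DMSO and dTAG cells, by the test of the interaction, for 5 of the 8 genes. The change after RA in dTAG minus that in DMSO was -3.14 on the log2 scale for Lefty1 (from -1.85 in DMSO to -4.99 in dTAG), -2.04 for Lefty2 (from -5.27 to -7.31), -1.23 for Gdf3 (from -1.63 to -2.86) and -0.54 for Nodal (from -1.53 to -2.07). The Nodal call was lost with both other scalings (-0.49 and -0.47), by DESeq2 (-0.49), by the test against a fold of 1.5 and in 3 of the fits without 1 library. The difference was 2.00 for Tdgf1 (from -5.05 to -3.04). In dTAG cells the step to RA also adds a second day of depletion, and the effects of these cannot be told apart here. Over all tested genes 18.0% were called lower and 13.7% higher in the same test. Groups of 2 libraries were not searched for single distant samples.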

How the results depend on the processing

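Of 1088 values of the 8 genes under the alternatives, 1012 kept their direction and side of the threshold, 16 lost a call, 22 gained one and 38 changed sign, and none of the 38 was called. With the plain quasi-likelihood rule 4 of 8 genes were called at 72 h and 5 between 72 and 24 h, in place of 2 and 3. At 24 h in RNA-seq library size alone called 0 and DESeq2 1 in place of 2, and leaving out a library gave 1 to 2. In TT-seq at 6 h no filter gave 2 and the replicate block 1 (Lefty2, 0.75, adjusted p = 0.0328) in place of 0. Without a filter Tdgf1 was also called at 72 h, and Nodal after RA by the plain rule (-0.62). The counts of calls moved in no other comparison by over 1.5 times. For the interaction Smad7 was called with the other scalings (0.51 and 0.52), by DESeq2 (0.51) and in 3 fits without a library, and Acvr2b without a filter (-0.53) and in 2 such fits (-0.55 and -0.50). For peaks, the median enrichment as a minimum left 0 genes near a ZFP143 peak in place of 1, and 10000 bp gave 3, and 6 for CTCF in place of 0.

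Signs changed with library size alone for Nodal (0.08) and Foxh1 (0.12) at 48 h, Gdf3 (0.22) at 72 h, Nodal (0.06) and Foxh1 (0.11) before RA, and Foxh1 after RA in dTAG (0.27). Foxh1 between 72 and 24 h was -0.01 without a filter and in the fit of those groups only, and Acvr2b and Smad7 before RA were -0.03 with DESeq2 size factors, by DESeq2 and in the fit of those groups only. Leaving out 1 library gave ranges that cross 0. In TT-seq at 2 h these were -0.20 to 0.01 for Nodal, -0.05 to 0.01 for Tdgf1, -0.16 to 0.23 for Gdf3 and -0.30 to 0.36 for Smad7. At 6 h they were -0.21 to 0.00 for Nodal, -0.04 to 0.24 for Tdgf1 and -0.22 to 0.37 for Smad7. At 24 h they were -0.45 to 0.02 for Lefty1, -0.73 to 0.21 for Lefty2, -0.05 to 0.16 for Nodal and -0.03 to 0.53 for Smad7. In RNA-seq they were -0.04 to 0.04 for Gdf3 at 72 h and -0.02 to 0.05 for Foxh1 between 72 and 24 h. Before RA they were -0.15 to 0.01 for Nodal, -0.02 to 0.03 for Acvr2b, -0.07 to 0.08 for Smad7 and -0.10 to 0.06 for Foxh1, and after RA in dTAG -0.15 to 0.06 for Foxh1. The cause of these changes was not tested.

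Over all TT-seq genes, leaving out 1 of the 4 compared libraries in turn, which leaves a group with a lone sample assumed to vary like the others, gave 102 to 290 lower and 10 to 31 higher calls at 2 h (423 and 30 with all), 109 to 309 and 8 to 38 at 6 h (522 and 69), and 340 to 467 and 98 to 165 at 24 h (760 and 359). In RNA-seq the higher calls before RA went from 436 to between 224 and 286, and those at 24 h from 323 to 207 without replicate 2 of DMSO. Fitting the compared groups only gave 294 lower and 49 higher in TT-seq at 24 h and 40 higher at 6 h. No filter gave 774 and 162, 980 and 338, and 1178 and 1025 at the 3 TT-seq times, and the test against a fold of 1.5 gave 70 and 5, 87 and 4, and 118 and 11. The plain rule called 1187 and 1591 genes in RNA-seq for 24 h, 2352 and 2944 for 48 h, 3066 and 3398 for 72 h, 2332 and 2606 between 72 and 24 h, 1342 and 2302 before RA, 2966 and 3333 after it, 4508 and 5460 for RA in DMSO and 4725 and 5364 in dTAG, while the test against a fold of 1.5 left 700 and 713 in the interaction. DESeq2 called 52 and 157 higher in TT-seq at 2 and 6 h, and in RNA-seq 335 and 102 after 24 h, 729 and 780 after 48 h, then 1156 and 1123 after 72 h, 478 and 535 between 72 and 24 h, 474 lower before RA and 765 and 789 after it.

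Library size alone moved the median log2 change of all genes to between 0.10 and 0.39 in the RNA-seq contrasts, and to 0 in the interaction (-0.07 with TMM). The split of calls, lower against higher, then became 385 against 495 at 24 h (475 against 323 with TMM), 698 against 2043 at 48 h (1073 against 1456), 1111 against 2731 at 72 h (1677 against 1912), 722 against 1259 between 72 and 24 h (919 against 1048), 483 against 626 before RA (583 against 436), 763 against 2084 after RA (1171 against 1449), 1713 against 5161 for RA in DMSO (2877 against 4113) and 1525 against 5436 for RA in dTAG (2939 against 3980). For the interaction it became 2410 against 2529 (2863 against 2186), with DESeq2 size factors 2515 against 2443. The called members kept their direction. The replicate numbers do not pair the libraries by the labels. Deviations of libraries with the same number correlated at 0.193 to 0.631 across genes in TT-seq and at -0.0986 to 0.125 in RNA-seq, and the block raised the TT-seq calls, lower and higher, to 658 and 91 at 2 h. At 6 h it gave 976 lower and 342 higher calls, at 24 h 1232 lower and 1000 higher. Beside the 6 h count above the block changed no call of the 8 genes. Depth limits Foxh1 in TT-seq and the Lefty genes after RA in dTAG.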
